A study of Drosophila melanogaster with 4 samples.

Results

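The maternal axis and germ plasm genes described here are bcd, nos, osk, pgc, gcl, vas, aub, piwi, stau and BicD, 10 of 13986 annotated protein-coding genes of Drosophila melanogaster. The mRNA of these genes is loaded into the egg by the mother, and the question addressed was which of them also show transcription initiation in the embryo and which show little or none. A transcription start site (TSS) counted for a gene where it lay within 200 bp, on the same strand, of the start of any annotated transcript of that gene. By this rule 215 of the 232302 deposited TSSs belonged to the 10 genes.

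The TSSs came from csRNA-seq (capped small RNA-seq) of wild-type Canton S embryos collected over 0 to 12 h and reared at 25 °C, with 3 csRNA-seq libraries and 1 input library and no other treatment or genotype. In csRNA-seq, capped short RNAs are selected, and the first base of a read gives the position where a transcript began. All values describe whole embryos, in which a gene read by few cells and a gene read weakly by many cells cannot be told apart. A 12 h collection holds embryos from before and after the start of zygotic transcription, and the values are not resolved by age.

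In Drosophila, the anterior-posterior axis is laid down in the oocyte by localised mRNAs. Microtubule transport carries bcd mRNA to the anterior pole and osk mRNA to the posterior pole, where Oskar protein assembles the germ plasm, the cytoplasm that instructs the pole cells to become the germline. The germ plasm holds Vasa, Aubergine and nos, pgc and gcl mRNAs, and the PIWI proteins Aubergine and Piwi carry small RNAs (piRNAs) that silence transposons in the germline.

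The deposited coverage of a TSS was its number of reads scaled to a library of 10000000 reads. Each coverage value was a whole number of reads of 1 of 3 libraries, of 7299457, 5931389 and 4070746 reads, in which 1 read was worth 1.37, 1.69 and 2.46. A TSS has therefore 1 value and no replicate spread. Reads of the other libraries at the same position are not given. Leaving out a library below therefore removes whole positions, namely the TSSs valued from it, and not only the reads of that library. The intervals below are 95% Poisson intervals of the reads behind a value, exact for a single TSS. For a summed coverage, the interval of the gene's total reads was scaled by its mean coverage per read. These summed intervals are approximate, since reads of the 3 libraries differ in worth. All intervals cover counting error only, since PCR duplicates cannot be told apart, and no test between genes was made.

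All 10 genes had called TSSs at an annotated start in these embryos, and none was without them. The 10 genes had between 12 and 33 TSSs each, and each gene had TSSs from all 3 libraries, as did 74.0% of the protein-coding genes with a TSS. Of all protein-coding genes, 69.9% had at least 1 TSS within 200 bp of a start. The coverage summed over a gene's TSSs reached 10 in 10 of 10 genes, against 63.4% of protein-coding genes. It lay above the median of the protein-coding genes with a TSS, 172.7, in 9 of 10, where 50% do so by construction. Without the TSSs of the library of 5931389 reads this count was 6 of 10.

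With all libraries, BicD, vas and gcl stood highest, with summed coverage of 1293, 694 and 534, and BicD was 8.05-fold above bcd, the lowest. This order depended on which TSSs were counted. Without the TSSs of the library of 7299457 reads, vas was highest at 550.4 and aub, at 293.7, was above BicD at 234 and gcl at 226. BicD was then 1.78-fold above bcd. The lowest gene was stau, piwi or pgc when the library of 7299457, 5931389 or 4070746 reads was left out, and bcd in none of these cases. With all libraries, the counting intervals of BicD and vas, of vas and gcl, and of gcl and aub did not overlap. From aub downwards, each gene's interval overlapped that of the next in the order aub, nos, osk, stau, pgc, piwi and bcd, which is 6 of the 9 neighbouring pairs, and the difference within a pair was not tested. The lower genes were close to an ordinary protein-coding gene, whose middle 50% ran from 49.1 to 526, and only BicD, vas and gcl were above that range. Of these, gcl was at its edge, with a counting interval of 479 to 594 that spans 526.

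**Figure D1:**
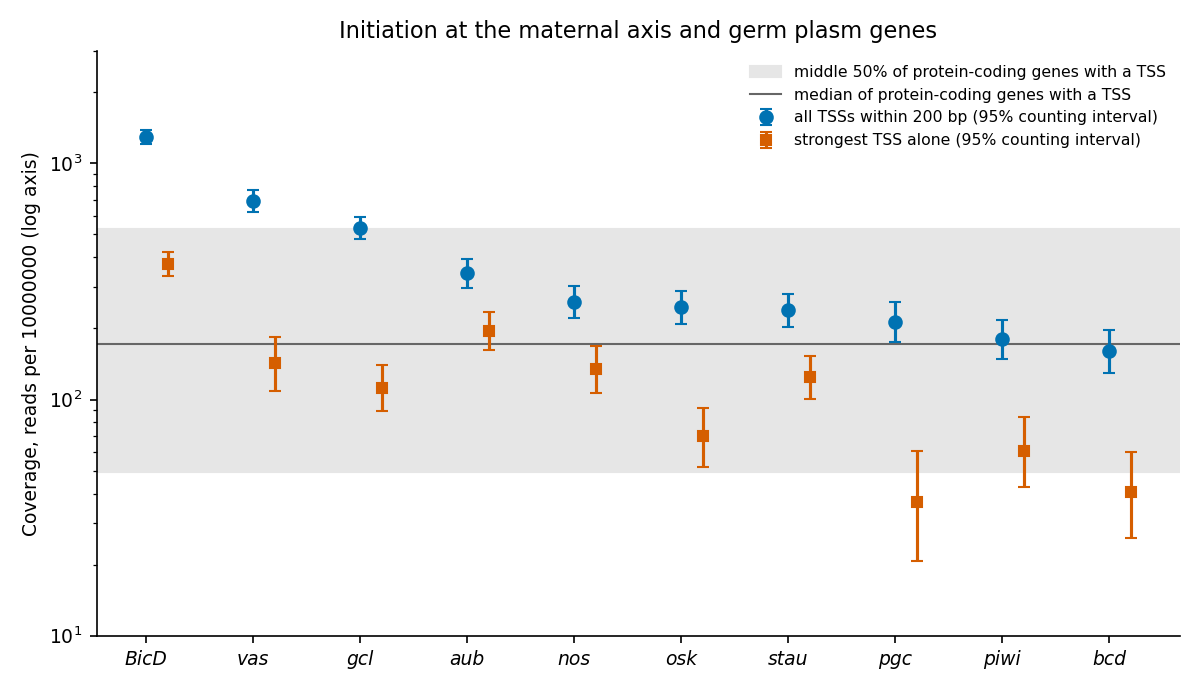
Coverage in reads per 10000000 (log axis) of each of the 10 genes, as the sum over all TSSs within 200 bp of a start (circles) and as the strongest TSS alone (squares), with 95% counting intervals, over the median (line) and middle 50% (band) of protein-coding genes with a TSS. BicD at 1293 and vas at 694 lie above the band, gcl at 534 lies just above its edge of 526, and the sum for bcd, 161, lies just under the median of 172.7.

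Among the genes of the anterior system and of mRNA transport, bcd encodes the homeodomain protein that patterns head and thorax as an anterior gradient. The gene (FBgn0000166) lies at chromosome 3R, 6755842 to 6759466 on the minus strand of BDGP6, and its 5 transcripts share 1 start at 6759466. Its summed coverage was 161 (interval 129 to 197; 91 reads in 19 TSSs), at percentile 48.3 of the protein-coding genes with a TSS. This was the lowest level of the 10 genes with all libraries counted, but not without any 1 of them. The strongest bcd TSS had coverage 40.5 from 24 reads and lay 11 bp downstream of the annotated start, and the next had 15.2 at 7 bp. Most bcd TSSs rested on very few reads, with 13 of 19 on 3 or fewer, and with at least 4 reads required the summed coverage was 101.

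The stau gene encodes a double-stranded RNA-binding protein that anchors bcd mRNA at the anterior and takes part in the transport of osk mRNA to the posterior. It lies at chromosome 2R, 18117896 to 18125779 on the minus strand. The coverage of stau summed to 239 (204 to 279; 160 reads in 12 TSSs), percentile 57.9. Initiation at stau was the most tightly placed on the annotation, since its strongest TSS, with coverage 125 from 91 reads, lay exactly on the annotated start at 18125779 and held 52.1% of the gene's coverage. A second annotated stau start at 18123873 was also used, with coverage 31.0 in 3 TSSs, 12.9% of the gene, of which the strongest had 22.1 and again lay on the annotated base.

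BicD encodes the adaptor that links the Egalitarian protein and its mRNA cargo to the dynein motor, and it also acts in many cells outside the germline. It lies at chromosome 2L, 17459605 to 17473215 on the minus strand, with 4 transcripts from 1 start. Its summed coverage of 1293 (1209 to 1382; 880 reads in 32 TSSs) was at percentile 87.8 and 7.49 times the median. The strongest BicD TSS had coverage 375.4 from 274 reads at 18 bp downstream, followed by 226 at 17 bp and 153 at 30 bp. Most of the coverage of BicD, 81.9%, stood at TSSs valued from the library of 7299457 reads, and without those TSSs the sum was 234. What the other libraries held at those positions is not given, so the share does not tell how BicD differed between libraries.

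Among the genes of the germ plasm, osk encodes the protein that nucleates it. The gene lies at chromosome 3R, 8935126 to 8938395 on the plus strand, with 2 transcripts from 1 start. The coverage of osk summed to 245 (208 to 287; 156 reads in 21 TSSs), percentile 58.6. Initiation at osk fell into a pair of clusters: the strongest TSS had coverage 69.9 from 51 reads at 32 bp downstream, with others at 28, 31 and 34 bp, and another stood at 5 bp with coverage 52.1 from 38 reads. The library of 7299457 reads gave 59.7% of osk coverage, and without its TSSs the sum was 98.8.

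The nos gene encodes a translational repressor that acts at the posterior and in pole cells. It is annotated under the name nanos (FBgn0002962) at chromosome 3R, 19157238 to 19160202 on the plus strand. All nos TSSs summed to a coverage of 259.7 (221 to 303; 158 reads in 14 TSSs), percentile 60.0. A single nos TSS, 2 bp downstream of the annotated start, had coverage 135 from 80 reads and held 51.9% of the gene's coverage. A smaller group of nos TSSs lay further downstream, with coverage 27.4 at 22 bp, 24.7 at 23 bp and 21.9 at 51 bp.

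The product of pgc is a small protein that blocks transcription elongation by RNA polymerase II in pole cells. The gene lies at chromosome 2R, 22330200 to 22332813 on the plus strand. All pgc TSSs together had coverage 213 (175 to 258; 107 reads in 21 TSSs), percentile 55.2. The strongest pgc TSS, at 23 bp, had coverage 36.8 from 15 reads and held 17.3% of the total, the lowest such share of the 10 genes. The stretch that held the middle of its coverage, from the 10th to the 90th percentile, was 30 bp, shorter than the 72 bp of piwi and the 50 bp of nos and gcl. A second annotated start, at 22332171, had 2 TSSs with coverage 18.1, 8.49% of the gene. The library of 4070746 reads gave 66.8% of pgc coverage, and without its TSSs the sum was 70.9.

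The gcl product acts at the nuclear envelope and in protein degradation, and is needed for pole cells to form. The gene lies at chromosome 2R, 8724258 to 8728999 on the plus strand. Coverage over the gene's TSSs was 534 (479 to 594; 343 reads in 33 TSSs), percentile 75.2. Initiation at gcl was spread over a broad stretch downstream of the start. The strongest gcl TSS had coverage 112 from 82 reads at 39 bp, followed by 50.6 at 33 bp and 48.9 at 34 bp, and a weaker group near the start reached 31.9 at 2 bp.

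The DEAD-box RNA helicase Vasa is a germ plasm component and the most widely used marker of germ cells. The vas gene lies at chromosome 2L, 15061656 to 15074311 on the plus strand. Its summed coverage was 694 (625 to 769; 367 reads in 31 TSSs), percentile 79.4. The strongest vas TSS had coverage 142 from 58 reads at 29 bp, with 101 at 24 bp and 71.2 at 28 bp, and no vas TSS lay upstream of the annotated start. The gene solo begins at the same annotated base, so all 31 TSSs counted for solo as well, and the coverage cannot be divided between them.

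Among the PIWI genes, aub encodes the cytoplasmic PIWI protein of the nuage and germ plasm. It lies at chromosome 2L, 10997819 to 11001476 on the minus strand. For aub the summed coverage was 343 (297 to 394; 202 reads in 14 TSSs), percentile 66.4. Initiation at aub was focused, with 57.0% of coverage in 1 TSS and 86.4% within 5 bp of it, the highest of both shares among the 10 genes. That TSS had coverage 196 from 116 reads and lay 48 bp downstream of the annotated start at 11001476, and no aub TSS lay less than 31 bp downstream. The second annotated aub start, at 11001108, had 0 TSSs.

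The piwi gene encodes the nuclear PIWI protein, which silences transposons at the level of chromatin. It lies at chromosome 2L, 10982205 to 10987420 on the minus strand. Its summed coverage was 180.3 (149 to 217; 113 reads in 18 TSSs), percentile 50.9, hardly above the protein-coding median. The strongest piwi TSS had coverage 60.7 from 36 reads at 27 bp downstream. With 5 of 18 TSSs before the annotated start, piwi had more upstream TSSs than any of the other 9 genes, and those at 5 bp and 27 bp upstream had coverage 17.8 and 15.2.

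**Figure D2:**
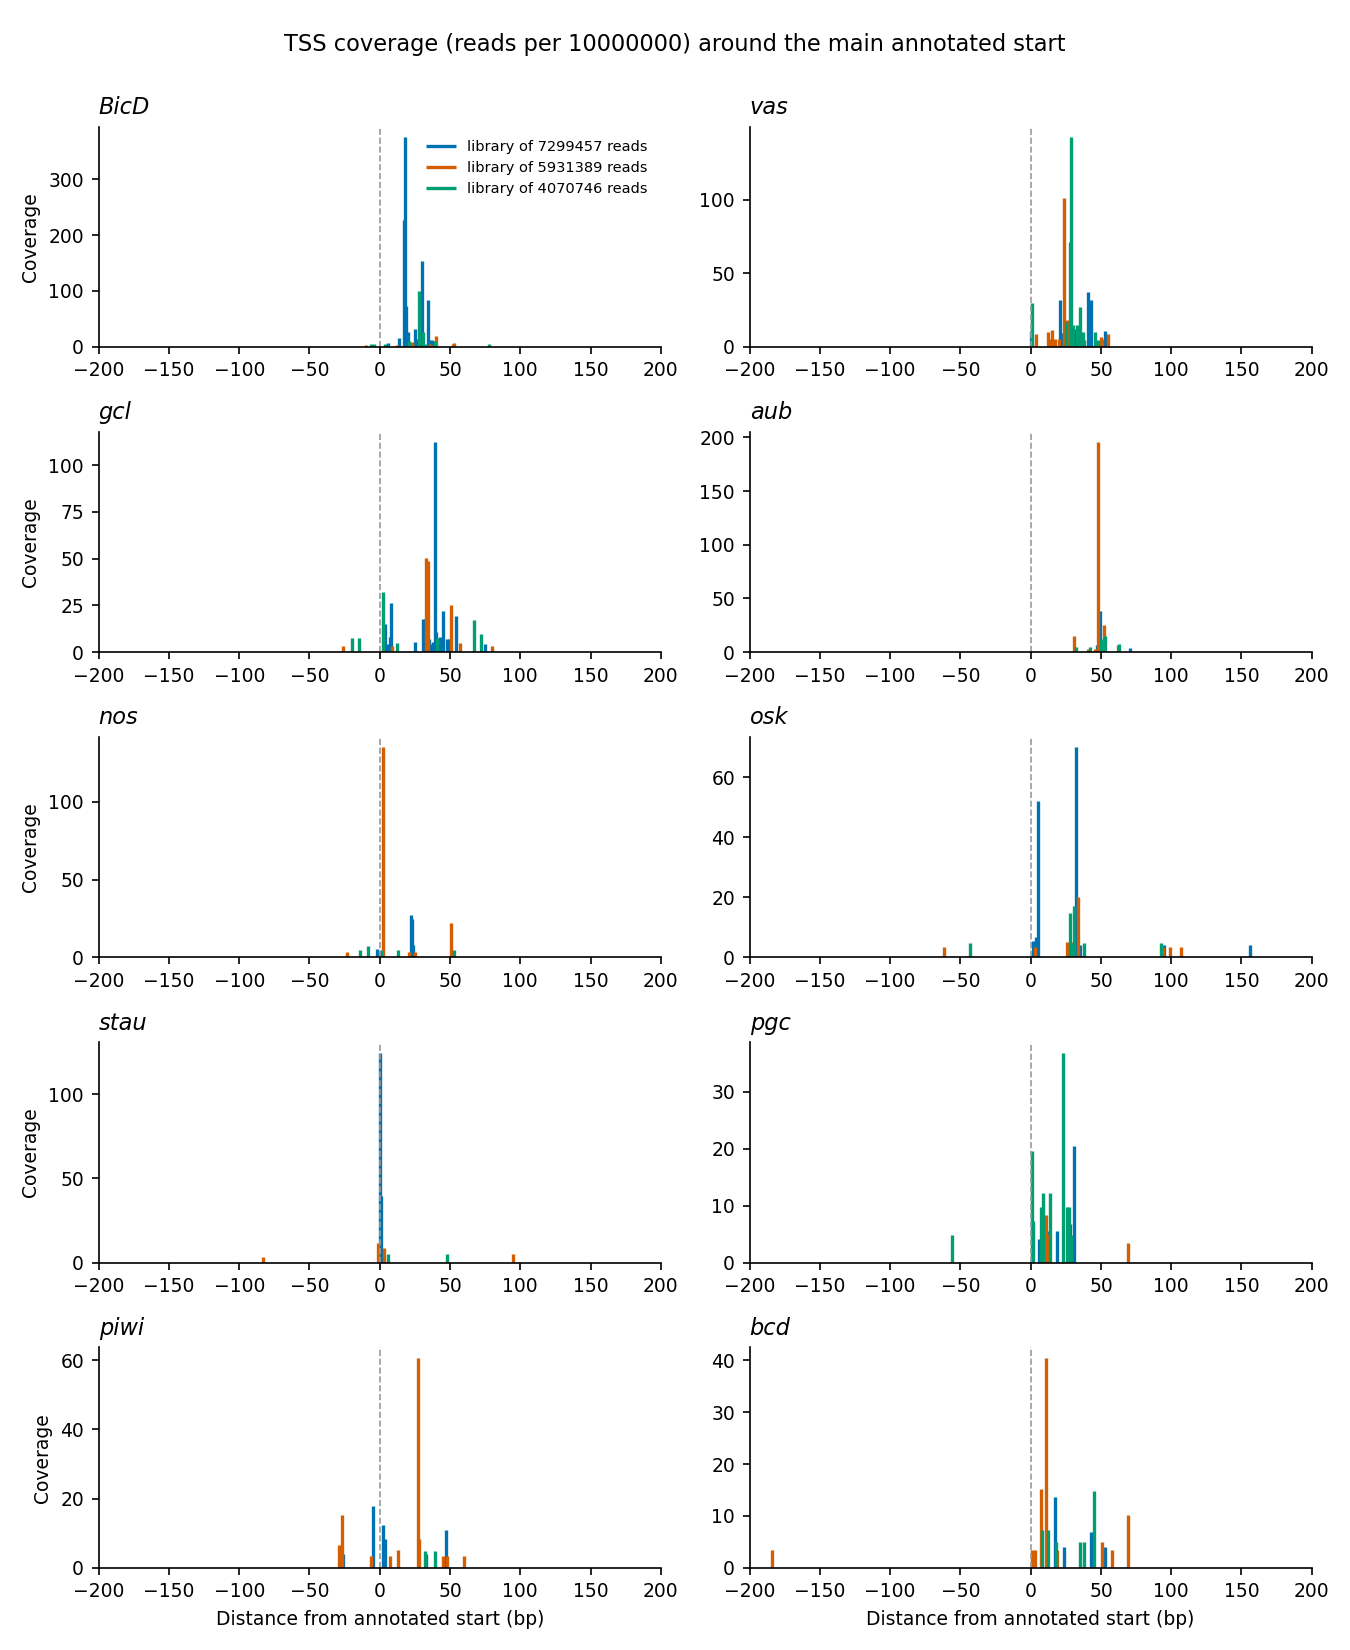
Coverage of each TSS (vertical lines, reads per 10000000, own scale per gene) against its distance in bp from the main annotated start of each of the 10 genes, coloured by the library that gave the value. The main peak lies on the dashed start line for stau (0 bp) and nos (2 bp), and downstream of it for the others, up to 48 bp in aub.

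The strongest TSS lay on or downstream of the annotated start in all 10 genes, on it in stau and downstream in the other 9. The median distance over the 10 genes was 25 bp downstream, where over the protein-coding genes with a TSS it was 6 bp, and 9 bp over the 6030 of them with at least 9 TSSs. Within 10 bp of a start the strongest TSS was found in 2 of 10 genes, nos and stau, against 50.2% of protein-coding genes with a TSS. With 25 bp allowed the count was 5 of 10, against 70.3%, and with 5 bp it was again 2 of 10, against 37.7%. Of the 215 TSSs, 189 (87.9%) lay downstream of the nearest annotated start of the gene. The same share over all protein-coding genes is not given here, so it cannot be called particular to the 10 genes.

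The 10 genes were neither uniformly focused nor uniformly dispersed. The strongest TSS held from 17.3% of coverage in pgc to 57.0% in aub, and the median over protein-coding genes with at least 9 TSSs was 30.4%, with a middle 50% of 20.7% to 49.3%. Only aub, stau and nos were above this range, while pgc and vas, at 20.5%, were below it. Of the 215 TSSs, 93 (43.3%) rested on 3 reads or fewer, where 52.8% of all deposited TSSs did. The fewest reads of a TSS at the 10 genes differed between libraries, so these shares depend on the mix of libraries. Together the 10 genes held 2577 reads and coverage of 4164, or 0.0393% of the coverage of the whole list.

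The listed values of these genes were drawn unequally from the 3 libraries. The library of 7299457 reads gave 34.0% of their TSSs, against 26.5% of all deposited TSSs, and 50.1% of their coverage. Those of 5931389 and 4070746 reads gave 35.8% and 30.2% of the TSSs, against 41.3% and 32.2% of all. Their shares of the coverage were 27.0% and 23.0%, and coverage shares over all TSSs are not given here. BicD, stau, osk and gcl had their largest share of coverage from the library of 7299457 reads. The largest share came from that of 5931389 reads in aub, nos, piwi and bcd, and from that of 4070746 reads in pgc and vas. When the TSSs valued from the library with the largest share were left out, stau fell from 239 to 64.0, nos to 92.8 and aub to 93.5. In the same way piwi fell to 67.4, bcd to 73.0, vas to 348 and gcl to 226. All 10 genes still had summed coverage of at least 10 without any 1 of the 3 libraries. The order of the genes, that of BicD, vas and gcl included, therefore changed with the TSSs left out, and it is a description of the pooled list only. Whether the order differs between libraries cannot be told, since each position shows 1 library.

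Neighbouring genes on the opposite strand lay within 1000 bp of 9 of the 10 genes, bcd being the exception, and of 41.2% of all protein-coding genes. The nearest opposite start to pgc was that of T3dh, with coverage 33.8. It lay 99 bp upstream of the second annotated pgc start at 22332171, not of the main one. That second pgc start had coverage 18.1, of the 213 of the whole gene. The start of CG11779 lay 221 bp upstream of nos with coverage 501, and that of Sgt 275 bp upstream of BicD with coverage 511. The genes CG14767 (411) near gcl, TfIIS (919) near vas and Spn55B (911) near stau also had well-covered starts, whereas CG12253 (57.4) near piwi, lectin-33A (4.91) near aub and the antisense RNA asRNA:CR44020 (3.37) near osk were low. Reads were assigned by strand, so none of these starts adds to the values of the 10 genes.

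Beyond the starts, all 10 genes had TSSs on the sense strand of their own exons, more than 200 bp from any annotated start. There were 44 such TSSs, of which 33 lay in coding sequence, 8 in the 3′ UTR and 3 in the 5′ UTR. They were weak, with coverage of at most 11.8 from 7 reads, in stau. Per kb of exon they were most frequent in osk, with 9 TSSs or 3.14 per kb, nos, with 7 or 2.98 per kb, and gcl, with 7 or 2.79 per kb, and least in piwi and aub, at 1 TSS each. Of the 9 in osk, 7 also lay in lncRNA:osk, a noncoding gene on the same strand, and cannot be divided between them, as was so for 1 of the 2 exonic TSSs of vas. The median over the 10 genes was 1.11 per kb, and that over protein-coding genes with coverage of at least 10 was 0.247 per kb, of which 45.1% had none. The share of sense coverage at the starts was 90.03% in the median of the 10 genes, from 80.1% in stau to 98.6% in aub, and 98.4% in the median of those protein-coding genes. The lowest of the 10 genes had summed coverage of 160.7, where the comparison genes begin at 10. The groups were not matched for level, so neither difference can be called particular to the 10 genes. Whether capped fragments of deposited maternal mRNA have a part in the exonic TSSs, or in those at the starts, was not tested, and the input library was not analysed here.

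**Figure D3:**
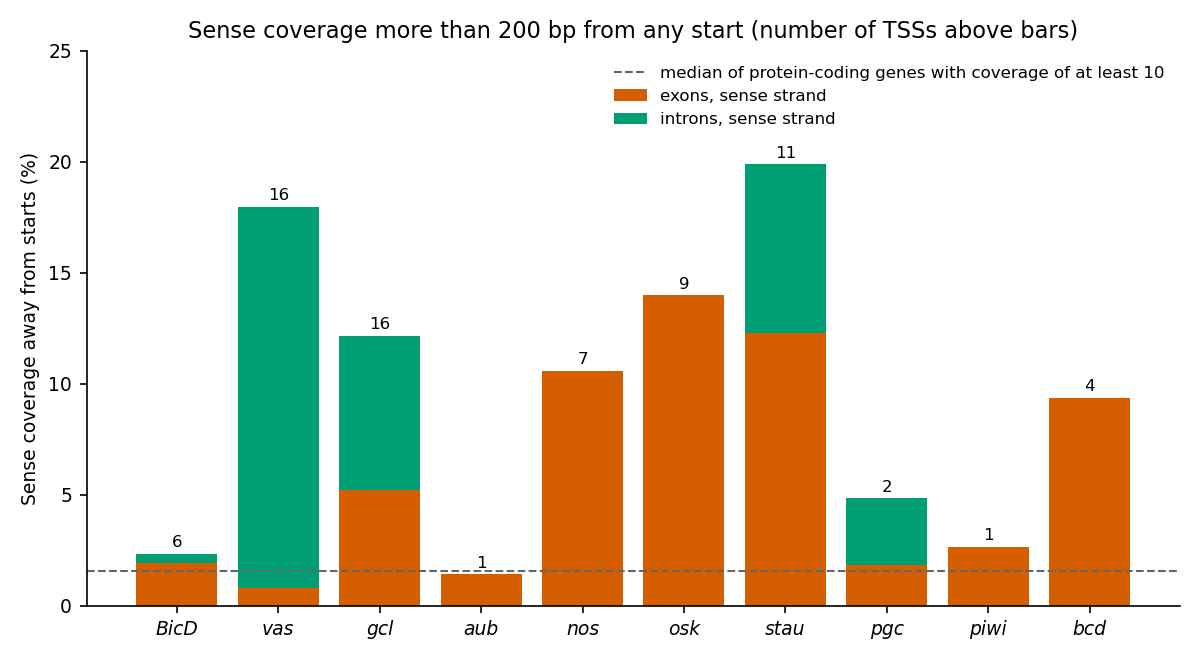
Share of sense-strand coverage (%) lying more than 200 bp from any annotated start of each gene, in exons and in introns, with the number of TSSs above each bar and the median of protein-coding genes with coverage of at least 10 as a dashed line. The share is lowest in aub, whose starts hold 98.6% of sense coverage, and highest in stau, whose starts hold 80.1%. The intronic TSSs of vas also lie within solo on the same strand.

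The introns of the 10 genes held 29 further sense TSSs, and 25 lay antisense within the genes. The strongest intronic TSSs were a pair in vas, 4396 and 4448 bp downstream of its start at positions 15066052 and 15066104 of chromosome 2L, with coverage 44.2 from 18 reads and 41.1 from 30 reads. They lay within solo on the same strand as well, as did all 14 intronic sense TSSs of vas, and cannot be divided between the genes. The gene vig runs there on the opposite strand. The strongest antisense TSS, with coverage 16.4 from 12 reads, was at nos, and also lay within CG11779 on that gene's own strand. Some other antisense TSSs lay likewise within vig, T3dh or Sgt on the strand of those genes.

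Lists of genes that work with these 10 gave a context. Of 60 genes in 5 such lists, 58 (96.7%) had a TSS at a start, against 69.9% of protein-coding genes. Coverage of at least 10 was reached by 56, against 63.4%. The protein-coding median was exceeded by 36, where 50% of the genes with a TSS do so by construction. The median coverage of the 60 genes was 359, beside 253 for the 10 genes. The lists were not alike. All 18 genes of osk mRNA transport and translation had a TSS, 16 were above the protein-coding median, and their median was 820. The highest of them was capu, encoding an actin nucleator, at 8394, and the lowest orb, encoding a germline regulator of polyadenylation, at 38.4. All 8 genes of the repression of maternal mRNA were above the protein-coding median, from smg, encoding the RNA-binding repressor Smaug, at 446 to pum, encoding the partner of Nanos, at 14596, with a median of 1504. Besides smg and pum, this list held brat, twin, glo, CycB, hb and cad.

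Genes of the piRNA pathway were lower. All 24 had a TSS and 23 had coverage of at least 10, but only 9 were above the protein-coding median of 172.7, and their median was 134. The lowest was cuff, encoding a partner of Rhino at piRNA clusters, at 5.06, and the highest squ at 4203, of which 4.43% also counted for grp. In the maternal terminal system, which patterns the embryonic ends through the Torso receptor, 4 of 5 genes had a TSS, trk, encoding the Torso ligand, had none, and clos had 3.37. Only tsl, which encodes a factor that activates this ligand, was above the protein-coding median, at 709. Of 5 early germline genes, 4 had a TSS, from bam, the switch to differentiation of the germline stem cell daughter, at 67.9 to otu at 1281, and bgcn, its partner, had none. The value for trk and bgcn means only that no TSS passed the deposited minimum at their starts.

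**Figure D4:**
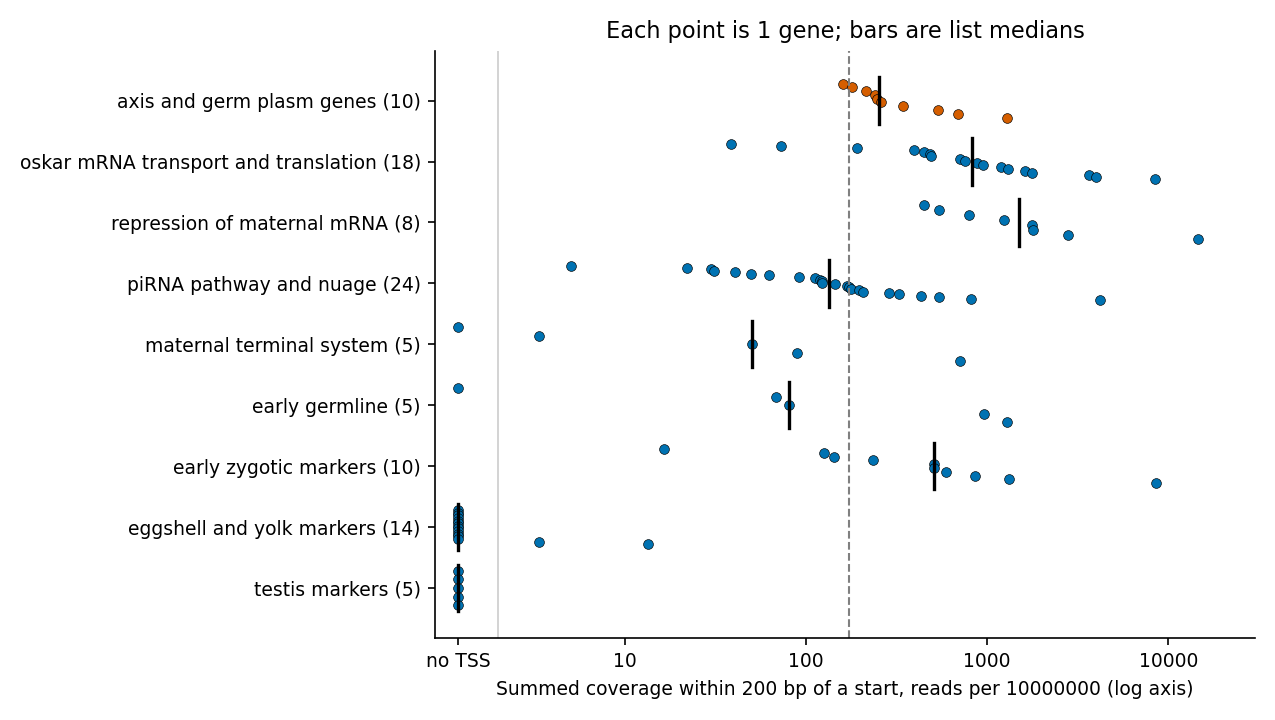
Summed coverage within 200 bp of a start (log axis, reads per 10000000, genes with no TSS at the left edge) of the 10 genes, the 5 related lists and the 3 marker lists, with 1 point per gene, bars at list medians and a dashed line at the protein-coding median of 172.7. The medians run from 1504 for the repression of maternal mRNA through 253 for the 10 genes to 50.2 for the terminal system, and eggshell and testis markers lie almost wholly at no TSS.

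Marker lists were used to check the label of the tissue. All 10 early zygotic genes of the embryo had a TSS, from nullo at 16.4 to Kr at 8529, with a median of 509. Markers of the eggshell and yolk, made by ovarian follicle cells and the adult fat body, had a TSS in 2 of 14 genes, namely Yp3 at 13.5 and Cp36 at 3.37, and 0 of 5 testis markers had one. These markers do not report on nurse cells, which make the mRNA loaded into the egg. Coverage at the starts made up 99.9% of sense coverage in the median of the early zygotic genes. The medians were 96.0% for osk mRNA transport and translation, 97.0% for the repression of maternal mRNA, 95.1% for the piRNA pathway, 95.5% for the early germline genes and 83.7% for the terminal system, beside 90.03% for the 10 genes.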

How the data were processed

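Embryo csRNA-seq was deposited as 1 table of TSSs for the 3 csRNA-seq libraries together. The authors trimmed adapters, aligned reads to dm6 with STAR, and called TSSs from read 5′ ends with HOMER and a minimum of 3. The paper gives the rule as a read count above 3, with background input controlled for. By the recovered reads, the list holds TSSs of 2 reads, with coverage of 3.37. The submitters' processing notes name bcl2fastq 2.17, HOMER 4.11, STAR 2.7.9a and bedtools 2.30.0. The deposited coverage is a signal scaled by the authors to 10000000 reads. Deposited windows repeat it, and a deduplicated list gives log2(coverage + 1) as the authors' score. How 1 library was chosen per TSS is not given in the sources used here. The input library was not analysed here.

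Reads and library were recovered from coverage for 232302 of 232302 TSSs (tolerance 1e-06 of a read). Of these, 17 could belong to more than 1 library, 0 of them at the 10 genes. TSSs were assigned to Ensembl 115 starts (BDGP6.54, the coordinates of dm6) within 200 bp on the same strand and summed per gene. TSSs near starts of several genes counted for each. Summed coverage counts 5′ ends, so no length correction applies. The gene nos was matched to the annotated name nanos, and eIF4A3 and dec-1 through RefSeq synonyms. The recovery of reads and libraries and the assignment of TSSs to starts were tested on simulated data, and the later steps were not. With 1 value per TSS no test across replicates was possible, and genes are described by value, count and rank.

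The named genes are the 10 genes, the highest, the lowest and any genes with no TSS of each related list, genes sharing a start, and the nearest opposite start within 1000 bp. Of the list of the repression of maternal mRNA, all genes are named. Genes that overlap TSSs away from the starts are named as well. Of the marker lists, the extremes and the genes with a TSS are named, the latter chosen after their values were seen. The 10 genes and all lists were chosen with earlier results of these data known. Alternatives were the distance (50 and 500 bp), a minimum of 4 reads, the start of the longest transcript, the nearest gene only, the deduplicated list, the strongest TSS, the tolerance to a start and leaving out each library. Sequence motifs were not analysed here. Computation was in Python 3.11.15 (SciPy 1.17.1, pandas 2.3.3 and NumPy 2.4.6), and plots were drawn with matplotlib 3.10.9.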

Additional observations from a re-analysis of the deposited data

How the results depend on the processing

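The counts of genes with a TSS and with summed coverage of at least 10 were 10 of 10 under each of the 9 alternatives run for them. The count above the protein-coding median ran from 6 to 10, and was 6 to 9 when the TSSs of 1 library were left out in turn. The related lists had 55 to 58 of 60 genes with a TSS. The strongest TSS lay within 5 or 10 bp of a start in 2 of 10 genes (37.7% and 50.2% of protein-coding genes with a TSS) and within 25 bp in 5 of 10 (70.3%). Requiring 4 reads lowered bcd from 161 to 101, osk from 245 to 186 and piwi from 180.3 to 140. Counting within 50 bp lowered gcl from 534 to 450 and aub from 343 to 285. Leaving out the TSSs valued from 1 library moved the level of BicD from 1293 to 234 at the most. It changed the lowest gene in all 3 cases and the highest in 1. No paired analysis was possible because each TSS has 1 value, in which no replicate number is carried, and no test was made. Depth limits the weak TSSs: at 2 reads the lowest coverage was 3.37. The motif search was not run.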
